A study of Mus musculus with 9 samples.

Results

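The 45 genes described here encode enzymes that activate and oxidise fatty acids or use ketone bodies, with the peroxisome proteins, regulators and uptake receptor that go with them. They were taken by symbol from a list, and all 45 were found among the 13081 genes of the kidney table. The list was sorted by where each enzyme is known to work, into 16 mitochondrial enzymes, 10 peroxisomal enzymes, 3 found in both or not settled, 6 activating enzymes, 3 ketone body enzymes, 4 peroxisome membrane and import genes and 3 regulators or receptors. Expression was measured in kidneys of wild-type mice of 3 months (young, n = 4 libraries) and of 16 months (old, n = 5 libraries). Both ages shared the wild-type genotype, and no treatment other than age is given in the labels. The study describes its mice as C57BL/6 fed a standard chow diet. The labels do not give sex, and the Y-linked genes Ddx3y, Eif2s3y, Kdm5d and Uty had reads in all 9 libraries, with sums of 311 to 355 normalised counts in young and 394 to 510.3 in old. The comparison asks which of these transcripts differ between the kidneys of young and old mice that carry no mutation.

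The libraries held 5093029 to 6355095 reads in the young group and 4486406 to 5794960 in the old group. The library titles carry a different prefix for each age, so preparation and age cannot be told apart if the prefix marks separate preparations. Genes encoded by the mitochondrial genome took 27.0% to 29.7% of the reads in the young libraries and 35.8% to 38.1% in the old. Within this, the 2 mitochondrial ribosomal RNA genes took 2.98% to 4.46% and 21.8% to 25.4%, without overlap between ages. When mitochondrial genes were removed before rescaling, 34 of the 45 genes were called, beside 33 in the results below, where 59.7% of all genes tested were called. The split into higher and lower genes then changed, as given with the other alternatives near the end. The tissue label was checked against markers, and the summed markers of proximal tubule, which is the segment best known for burning fat, overlapped between ages (55696 to 60743 normalised counts in young, 49893 to 66027 in old). Of its 14 markers, 3 were higher, 9 lower and 2 not called, and Slc27a2 among them is also counted with the peroxisomal genes below. The 7 leukocyte markers summed to 1129 to 1312 in young and 1398 to 1972 in old (4 higher, 0 lower, 3 not called), and the 6 endothelial markers to 1182 to 1339 and 1486 to 1749 (3 higher, 0 lower, 3 not called). Thick ascending limb markers summed to 10471 to 11097 and 11681 to 16073 (2 higher, 1 lower, 2 not called), and distal convoluted tubule markers to 3231 to 4071 and 4774 to 5885 (2 higher, 2 lower). Collecting duct markers were lower in 5 of 7 genes (1 higher, 1 not called), with sums of 2574 to 3172 in young and 1399 to 1833 in 4 old libraries, while old replicate 3 stood apart at 3341. Podocyte markers summed to 685 to 753 and 736 to 870 (3 higher, 1 lower, 1 not called). Adipocyte markers ranged from 699 to 1800 in young and from 311 to 2247 in old, with the highest sums in young replicate 2 and old replicate 3 (4 tested, 0 higher, 1 lower, 3 not called). The part of cell makeup in the results was not tested. In whole tissue, fewer cells of a type and less RNA per cell cannot be told apart.

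Fatty acids are burned by β-oxidation, a repeated cycle of dehydrogenation, hydration, a second dehydrogenation and thiolytic cleavage that shortens an acyl-CoA and releases acetyl-CoA. Mitochondria run the cycle on most fatty acids after the carnitine shuttle has carried them in, and pass the electrons on through the electron transfer flavoprotein. Peroxisomes shorten very long, branched and dicarboxylic chains, with oxidases in place of the first dehydrogenases. The proximal tubule of the kidney relies on this pathway for much of its energy, and it also takes up ketone bodies. PPARα, encoded by Ppara, is the nuclear receptor best known for switching these genes on.

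Gene pairs and promoters are shown first because the account turns on genes that share a step or a regulator. Hadha and Hadhb encode the α and β subunits of a single complex, the mitochondrial trifunctional protein, and are transcribed away from each other. Hadha lies on the minus strand at chr5:30118304-30155162 and Hadhb on the plus strand at chr5:30155248-30184593 (GRCm38, GENCODE vM21, which is not the GRCm39 build used for counting). The 85 bases between their starts, at chr5:30155163-30155247, were taken from the RefSeq promoter windows (GRCm38.p6) and are printed on the plus strand with the GC box GGGCGG in capitals.
between Hadha and Hadhb: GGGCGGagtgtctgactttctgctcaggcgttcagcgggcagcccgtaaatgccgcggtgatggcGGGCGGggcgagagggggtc

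PPARα is known to bind, with its partner RXR, a direct repeat of the half-site AGGTCA spaced by a single base. A RefSeq window of 250 bases before to 50 bases after a start that RefSeq gives was found for 39 of the 45 genes. The full repeat AGGTCANAGGTCA, searched on both strands, was in 0 of these 39 windows and in 0.0396% of all 32851 windows, and the looser form AGGNCANAGGNCA was in 0 and 0.381%. At rates this low, 39 windows would rarely hold a match, so these counts cannot show whether the genes have such sites. The half-site alone was in 6 windows (15.4%), against 16.3% of all windows and 15% of the 9837 genes of the table that had one. The GC box was in 28 windows (71.8%), against 35.7% of all windows and 68.4% of those of genes in the table. These half-sites, of which the full repeat holds a pair, are printed 5′ to 3′ on the strand of the gene, in capitals as AGGTCA or its reverse complement. They lie at chr3:153944875-153944893, chr11:70015498-70015527, chr7:140116487-140116516, chr19:3323195-3323224, chr4:108118639-108118668 and chr5:17836107-17836136, in the order below. For Cpt1a, Scp2 and Cd36 the RefSeq start lies 967, 26451 and 52905 bases downstream of the first start in GENCODE, so these windows belong to other transcript starts of those genes.
Acadm: gTGACCTtcgggctccggt
Acadvl: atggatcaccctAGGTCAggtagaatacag
Echs1: accagcccgctcAGGTCAcgggtccacccc
Cpt1a: cagtttccttacTGACCTcctccccgcagc
Scp2: gtctaacacagtAGGTCAaaagaacccata
Cd36: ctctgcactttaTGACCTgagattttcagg
Among these 6 genes, Echs1 and Cpt1a were higher in old kidneys, Acadm and Scp2 were lower, and Acadvl and Cd36 were not called.

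The values below are normalised read counts, which are the reads of a gene divided by the size factor of its library. A gene counts as called where limma gave an adjusted p-value under 0.05, over 12667 genes that reached 10 normalised counts in 4 or more libraries. All 45 genes passed that filter. Fold changes are log2 differences, old minus young, of the normalised count plus 1. Of the 45, 33 were called (73.3%), against 59.7% of all genes tested. The 14 that were higher in old kidneys were 31.1% of the list, close to the 29.2% of all genes tested. The 19 that were lower were 42.2%, against 30.5%. Young and old values were fully apart, without overlap, in 30 genes (66.7%), against 49.0% of all genes tested. The log2 fold changes ran from -3.22 for Pex5 to 2.33 for Ppara, with a median of -0.19 beside -0.0027 for all genes tested. The median size of change, sign aside, was 0.56 in the list and 0.56 in all genes tested. The 2 ends of this range were an import receptor of the peroxisome and a nuclear receptor, and most roles held genes of both directions.

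**Figure D1:**
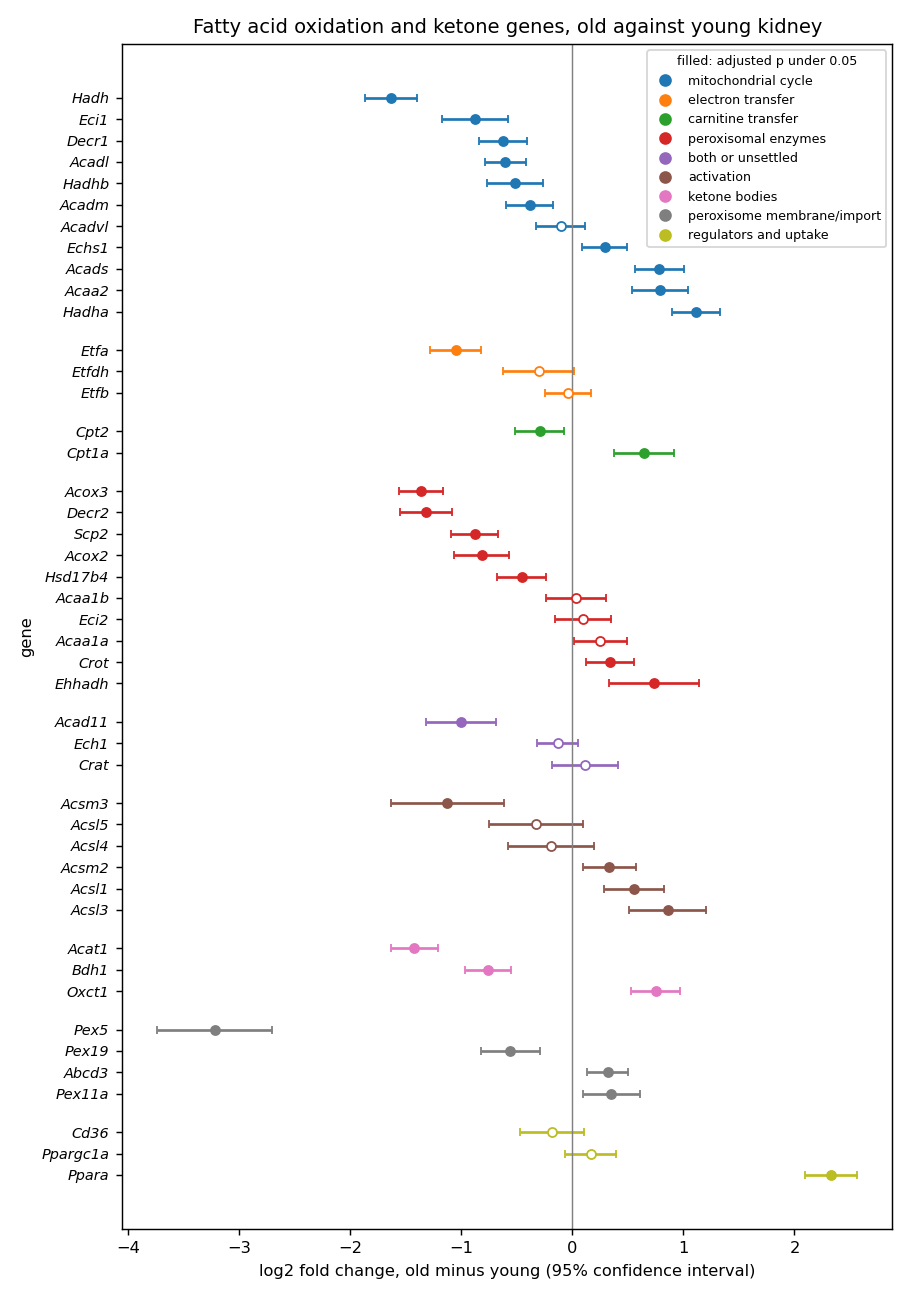
Log2 fold change (old minus young, x axis) of each of the 45 genes (y axis), grouped by role, with 95% confidence intervals from limma and filled points for genes called at an adjusted p-value under 0.05. Pex5 (-3.22) and Ppara (2.33) lie farthest from 0, and the mitochondrial and peroxisomal enzymes each spread to both sides.

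Of the 11 enzymes of the mitochondrial cycle, 4 were higher, 6 lower and 1 not called, beside 29.2% higher and 30.5% lower among all genes tested. They take up the steps in turn below. The first step is carried out by acyl-CoA dehydrogenases specialised by chain length. Acads, which takes short chains, had 897, 806, 839 and 800.3 normalised counts in the young libraries and 1416, 1301, 1234, 1798 and 1492 in the old. Every old library lay above every young one, and the log2 fold change was 0.78 (SE 0.11, adjusted p = 3.81e-06). Acadl, for long chains, had 1405, 1309, 1360 and 1272 in young and 872, 869.6, 901, 968 and 795 in old. All old values were below all young values, and the log2 fold change was -0.60 (SE 0.09, adjusted p = 1.01e-05). Acadm, for medium chains, was lower as well, with 2025, 1952, 1985 and 1988 in young and 1439, 1255, 1664, 1526 and 1776 in old. Its mean went from 1988 ± 29.9 (SD, n = 4) to 1532 ± 201 (SD, n = 5), without overlap, and the log2 fold change was -0.39 (adjusted p = 0.00268). It lost its call when a trend with transcript length was removed (-0.18, adjusted p = 0.143). Acadvl, for very long chains, was not called, at 577 ± 7.28 in young and 541 ± 73.5 in old (log2 fold change -0.11, 95% interval -0.33 to 0.12, adjusted p = 0.404). The dehydrogenases of this family that start the cycle thus held 1 rise and 2 falls.

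The steps after the first include those of the trifunctional protein. Hadha carries the hydratase and the long-chain hydroxyacyl-CoA dehydrogenase of the trifunctional protein, and had 500.4, 489, 413 and 493 normalised counts in young and 1071, 941, 1073, 1176 and 879 in old. Hadhb carries the thiolase of the same complex, and had 427, 458, 405 and 397 in young and 245, 296, 381, 295 and 268 in old. Neither gene overlapped between ages, and they moved in opposite directions. Hadha was 2.17-fold higher in old kidneys (log2 fold change 1.11, 95% interval 0.90 to 1.33, adjusted p = 4.05e-08). Hadhb was at 0.705 of its young level (log2 fold change -0.52, 95% interval -0.77 to -0.27, adjusted p = 0.00107). The ratio of Hadha to Hadhb reads within a library was 1.17, 1.07, 1.02 and 1.24 in young and 4.37, 3.17, 2.81, 3.99 and 3.28 in old. This ratio was chosen after the values were seen and is given as a description. The 3′ end of Hadha runs over Garem2 on the other strand, and counting was by strand.

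Hadh, the dehydrogenase that takes over the third step for medium and short chains, fell the most of the 16 mitochondrial enzymes of the list. It had 3363, 3434, 3462 and 2987 normalised counts in young and 896, 1332, 1170, 1053 and 932 in old. All old libraries lay far below all young ones, and the log2 fold change was -1.63 (SE 0.11, adjusted p = 6.52e-10). Echs1, the hydratase of shorter chains, had 669.9, 643, 669.7 and 668 in young and 744, 758, 764, 972 and 835 in old. It was higher in each old library (log2 fold change 0.29, adjusted p = 0.0145). Acaa2, the thiolase that closes the cycle on medium chains, had 660.1, 668, 609.8 and 703 in young and 1232, 1022, 1192, 1455 and 877 in old. It was 1.75-fold higher (log2 fold change 0.79, adjusted p = 1.7e-05), again without overlap.

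Unsaturated fatty acids need auxiliary enzymes that move or reduce their double bonds, and both that were listed for mitochondria were lower. Eci1, an enoyl-CoA isomerase, had 477, 440.2, 396 and 336 normalised counts in young and 281, 202, 226, 255 and 167 in old (log2 fold change -0.87, adjusted p = 3.56e-05). Of the 50-base words at its transcript end, 6.05% are shared with Mdm2, so its counts are given with that uncertainty. Decr1, the dienoyl-CoA reductase, had 953, 832, 879 and 819 in young and 476, 532, 545, 633 and 647 in old (log2 fold change -0.63, adjusted p = 4.34e-05). In both genes every old library lay below every young library.

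Electrons from the first step pass to the electron transfer flavoprotein, a dimer of Etfa and Etfb products, and on through Etfdh. Etfa had 443, 500.4, 496 and 419 normalised counts in young and 211, 219, 203, 223 and 266 in old. The age groups were far apart, and the log2 fold change was -1.05 (SE 0.11, adjusted p = 1.65e-07). Etfb, its partner, had 2504, 2497, 2667 and 2563 in young and 2571, 2544, 2029, 2884 and 2486 in old, an overlap that left it uncalled (log2 fold change -0.04, 95% interval -0.25 to 0.17, adjusted p = 0.747). Its last 500 bases share 48.8% of their 50-base words with another gene, and Gm45233 lies over its end on the same strand, so the count of Etfb is uncertain. With the length trend removed, Etfb turned to 0.38 (adjusted p = 0.00201). The ratio of Etfa to Etfb reads was 0.164 to 0.200 in young and 0.0773 to 0.107 in old libraries. Etfdh had 248, 249.7, 246 and 209 in young and 151, 152, 191, 233 and 257 in old, where the groups overlapped and no call was made (log2 fold change -0.31, 95% interval -0.62 to 0.01, adjusted p = 0.0895). It was called lower without old replicate 4 (-0.37, adjusted p = 0.0476), without old replicate 5 (-0.41, adjusted p = 0.0191) and when reads were scaled to the table total (-0.36, adjusted p = 0.0464).

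**Figure D2:**
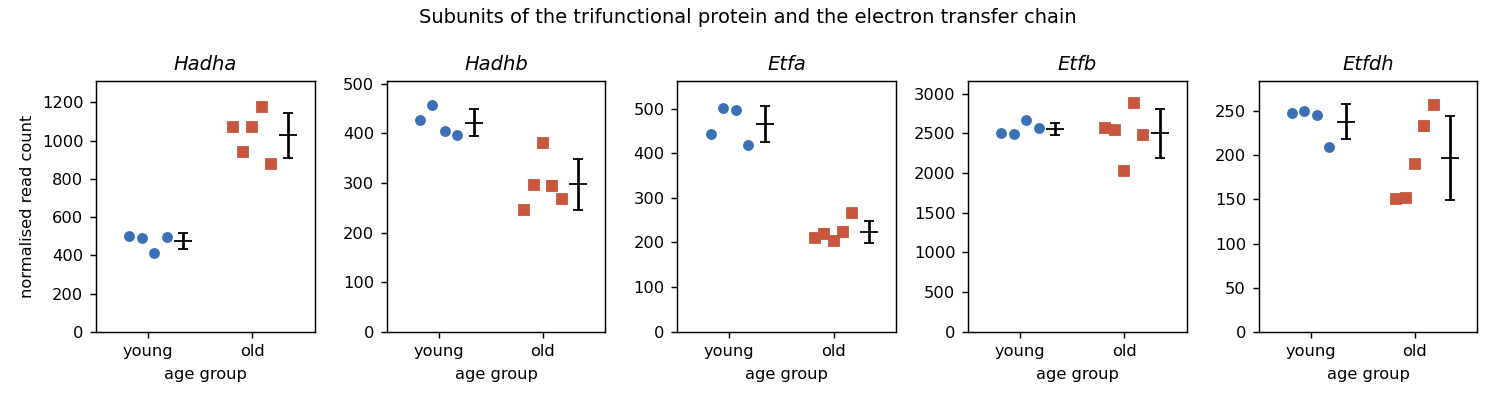
Normalised read counts (y axis, starting at 0, a scale for each gene) of Hadha, Hadhb, Etfa, Etfb and Etfdh in young and old kidneys (x axis), with a point for each library and the mean ± SD beside them. Hadha lies higher in all 5 old libraries while Hadhb lies lower, and Etfa lies lower while Etfb overlaps between ages.

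The carnitine shuttle has an outer and an inner transferase, and they differed in direction. Cpt1a, the outer enzyme that controls entry, had 718, 647, 641 and 538 normalised counts in young and 905, 770.1, 951, 1240 and 1156 in old. It was 1.58-fold higher without overlap (log2 fold change 0.64, SE 0.13, adjusted p = 0.000252). Cpt2, the inner enzyme, had 349.7, 374, 353 and 284 in young and 282, 265, 276, 293 and 264 in old, with 4 of 5 old libraries below all young ones (log2 fold change -0.30, adjusted p = 0.0222). The call of Cpt2 was lost without young replicate 1 (adjusted p = 0.0603), 2 (adjusted p = 0.0864) or 3 (adjusted p = 0.0649), and its adjusted p ranged from 0.00673 to 0.267 over the alternatives. Slc25a20, the carrier that links both enzymes and is not in the list of 45, had 276, 289.6, 282 and 279 in young and 123, 96.3, 121, 90.5 and 76.4 in old (log2 fold change -1.49, SE 0.14, adjusted p = 4.83e-08). The shuttle thus held a rise at its first step and lower counts at its later steps.

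Among the 16 mitochondrial enzymes as a whole, 13 were called (81.2%), with 5 higher (31.2%), 8 lower (50%) and 3 not called. The 10 peroxisomal enzymes held 7 calls (70%), with 2 higher (20%), 5 lower (50%) and 3 not called. The age groups did not overlap in 12 (75%) and in 6 genes (60%). Over all genes tested, 59.7% were called, 29.2% higher and 30.5% lower, and 49.0% did not overlap. The median log2 fold change was -0.30 for the mitochondrial and -0.21 for the peroxisomal enzymes, with ranges of -1.63 to 1.11 and -1.36 to 0.74. By library, the median level of the mitochondrial enzymes relative to the young mean was -0.08 to 0.04 in young and -0.43 to -0.22 in old on the log2 scale. The peroxisomal enzymes were at -0.08 to 0.12 in young and at -0.34 to -0.11 in old, so the old libraries lay below the young in each compartment and the compartments overlapped with each other. No test between the compartments was made, since genes of a list are not replicates. With the length trend removed, the split became 6 higher and 6 lower in mitochondria and 4 higher and 5 lower in peroxisomes.

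**Figure D3:**
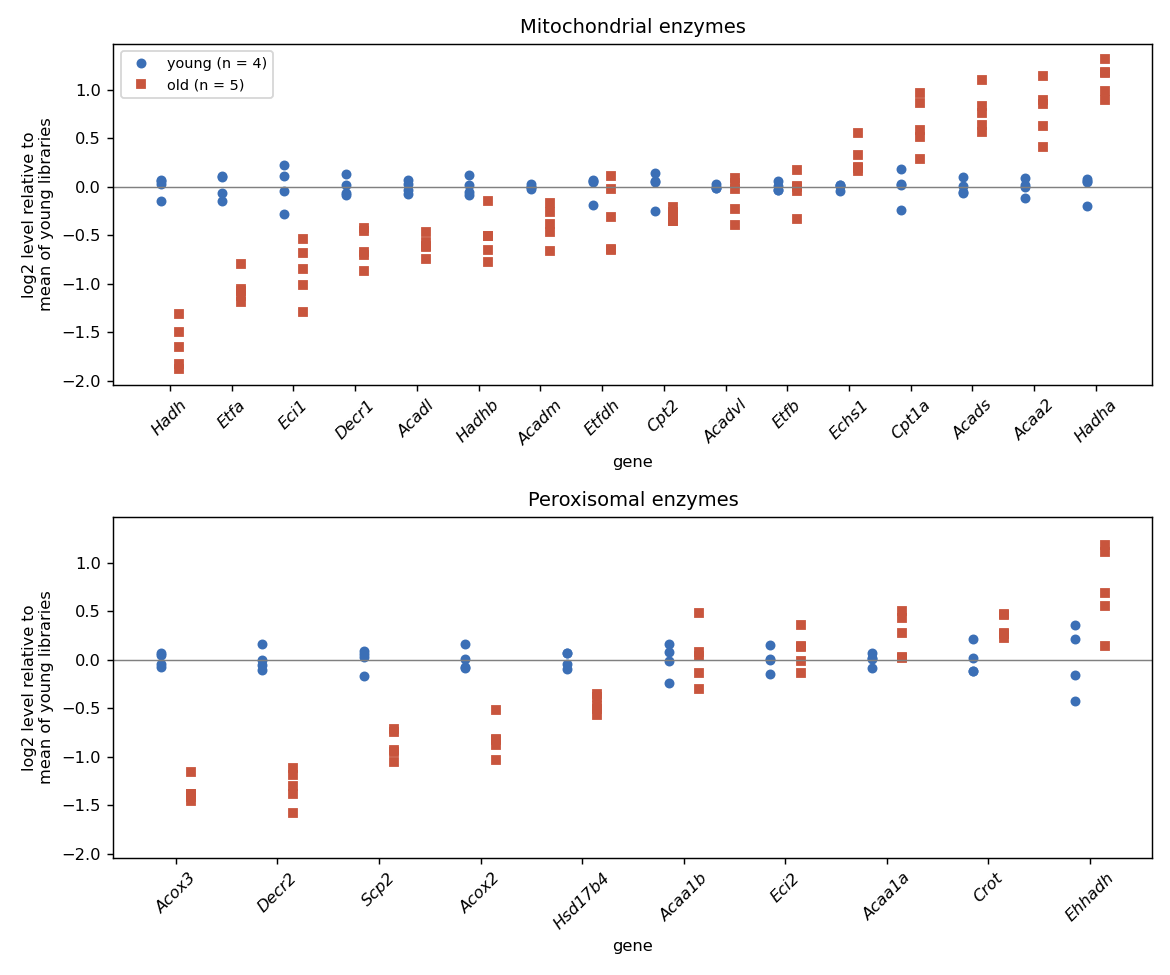
Level of each gene in each library, as log2 relative to the mean of the young libraries (y axis), for the 16 mitochondrial (top) and 10 peroxisomal enzymes (bottom), with circles for the 4 young and squares for the 5 old libraries. Genes are ordered by their change, from Hadh (-1.63) to Hadha (1.11) and from Acox3 (-1.36) to Ehhadh (0.74), and each compartment holds genes on both sides of 0.

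Peroxisomal oxidation begins with acyl-CoA oxidases, and those for branched chains were lower. Acox3 had 826, 901, 908 and 841 normalised counts in young and 324, 387, 316, 332 and 331 in old. This was the largest fall among the 10 peroxisomal enzymes of the list (log2 fold change -1.36, SE 0.09, adjusted p = 8.39e-10), and the groups did not come near each other. Acox2, which also works on bile acid precursors, had 323, 359.5, 304 and 305 in young and 157, 183, 182, 174 and 224 in old (log2 fold change -0.82, adjusted p = 8.71e-06). Both oxidases of the list were therefore lower in old kidneys, without overlap.

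The next steps are run by a pair of bifunctional proteins that moved apart. Hsd17b4, the D-bifunctional protein for branched and very long chains, had 274, 295, 264 and 295 normalised counts in young and 198, 219.9, 216, 189 and 203 in old (log2 fold change -0.46, adjusted p = 0.000957). Ehhadh, the L-bifunctional protein and a textbook target of PPARα, had 180.2, 139, 115 and 199 in young and 249.9, 171, 227, 353 and 335 in old. Its groups overlapped, with 4 of 5 old libraries above all young ones, and it was called higher (log2 fold change 0.74, SE 0.19, adjusted p = 0.00295). Of the 3 thiolases that end the round, 1 was lower and 2 were not called, where 59.7% of all genes tested were called and 30.5% were lower. Scp2, which also encodes a sterol carrier protein, had 825, 805, 789 and 687 in young and 371, 473, 406, 463 and 399 in old (log2 fold change -0.88, adjusted p = 5.98e-07). As 70% of the words at its transcript end are shared with Scp2-ps2 and Podn lies over that end on the same strand, this count is uncertain. Acaa1a was at 321 ± 13.6 and 385 ± 59.4 (log2 fold change 0.25, 95% interval 0.01 to 0.49, adjusted p = 0.0669), and it was called higher without old replicate 2 (adjusted p = 0.0234) or old replicate 3 (adjusted p = 0.0297), in edgeR (0.27, adjusted p = 0.0492), with the length trend removed (0.51, adjusted p = 0.001) and with mitochondrial genes left out (0.39, adjusted p = 0.00444). Acaa1b was at 1211 ± 141 and 1254 ± 268 (log2 fold change 0.03, 95% interval -0.24 to 0.31, adjusted p = 0.839). Acaa1a and Acaa1b share 45.4% and 38.8% of their end words with each other, and neither count can be taken alone.

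The auxiliary and export enzymes of peroxisomes were split as well. Decr2, the peroxisomal dienoyl-CoA reductase, had 598, 512, 529 and 495 normalised counts in young and 177, 244, 233, 202 and 215 in old (log2 fold change -1.32, SE 0.11, adjusted p = 1.36e-08). It was at 0.402 of its young level, and 5.6% of the words at its end are shared with another gene. Its mitochondrial counterpart Decr1, described above, was lower too. Eci2, the isomerase, was at 189 ± 16.4 and 203 ± 26.3 and was not called (log2 fold change 0.10, 95% interval -0.16 to 0.35, adjusted p = 0.514), with 9.57% of its end words shared with Eci3. It was called higher only with the length trend removed, among the alternatives run (0.35, adjusted p = 0.0155). Crot, which hands shortened chains to carnitine for export, had 425, 372, 337 and 339 in young and 442, 429.9, 504, 509 and 443 in old (log2 fold change 0.34, adjusted p = 0.00863), every old value being higher.

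Of the 3 enzymes placed in both compartments or in neither, only Acad11 was called, where 59.7% of all genes tested were called. Acad11, a dehydrogenase of very long and hydroxylated chains, had 339, 411, 315 and 327 normalised counts in young and 116, 215, 177, 192 and 177 in old (0.505 of the young mean, adjusted p = 1.39e-05). Ech1, a dienoyl-CoA isomerase, was at 1257 ± 84.8 and 1146 ± 75.0 (log2 fold change -0.13, 95% interval -0.32 to 0.05, adjusted p = 0.207), and turned to 0.21 (adjusted p = 0.043) with the length trend removed. Crat, which exchanges acetyl groups between CoA and carnitine, was at 222 ± 12.4 and 246 ± 56.0 (log2 fold change 0.12, 95% interval -0.18 to 0.41, adjusted p = 0.503).

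Before any of these steps a fatty acid is joined to CoA. Of the 6 activating enzymes, 3 were higher, 1 lower and 2 not called, a called share of 66.7% that is near the 59.7% of all genes tested. Acsl1, the main long-chain synthetase of oxidising tissues, had 737, 656, 642 and 479 normalised counts in young and 905, 767, 893, 1191 and 860.3 in old (log2 fold change 0.56, adjusted p = 0.00122). Acsl3, known from lipid droplets and the endoplasmic reticulum, had 78.6, 106, 133 and 77.0 in young and 169, 138, 194, 204 and 178 in old (log2 fold change 0.86, SE 0.17, adjusted p = 0.000216). Neither overlapped between ages. Acsl4, which prefers arachidonate, ranged from 95.8 to 144 in young and from 76.4 to 162 in old (log2 fold change -0.19, 95% interval -0.58 to 0.20, adjusted p = 0.389). Acsl5 ranged from 61.2 to 103 and from 47.6 to 94.3 (log2 fold change -0.33, 95% interval -0.75 to 0.10, adjusted p = 0.172). It was called lower when the libraries with the highest adipocyte sums, young replicate 2 and old replicate 3, were left out together (-0.60, adjusted p = 0.0183). Acsl4 and Acsl5 rested on few reads, 72 to 160 and 49 to 126 per library.

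The medium-chain synthetases of the kidney parted. Acsm2, a gene of the proximal tubule, had 9780 normalised counts in young replicate 1 and 9384, 8671 and 8003 in the others, against 10291, 10500, 12269, 9928 and 13714 in old. It was called higher (log2 fold change 0.33, adjusted p = 0.018) with every old library above every young one. The call was lost without young replicate 3 (adjusted p = 0.0526) or young replicate 4 (adjusted p = 0.0659), and the change was at -0.0062 (adjusted p = 0.964) once the length trend was removed. Acsm3 had 725, 636, 621 and 594 in young and 218, 232, 404, 177 and 604 in old. Old replicate 5 lay within the young range and the other 4 far below it, and the log2 fold change was -1.13 (SE 0.24, adjusted p = 0.000611).

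Ketone bodies are used in 3 enzymatic steps, and the enzyme in the middle moved against the others. Bdh1, which turns β-hydroxybutyrate into acetoacetate, had 1152, 1086, 1122 and 1044 normalised counts in young and 631, 758, 575, 593 and 717 in old. It was lower without overlap (log2 fold change -0.76, SE 0.10, adjusted p = 2.73e-06). Oxct1, which transfers CoA to acetoacetate and commits it to oxidation, had 3092, 2970, 2838 and 2683 in young and 4811, 4101, 4519, 5219 and 5898 in old, a 1.70-fold higher mean (log2 fold change 0.75, SE 0.11, adjusted p = 6.16e-06). Acat1, the thiolase that splits acetoacetyl-CoA and also serves isoleucine breakdown, had 3879, 3710, 3858 and 3550 in young and 1175, 1526, 1378, 1295 and 1659 in old. It stood at 0.375 of its young level, the largest fall of the 3 (log2 fold change -1.42, SE 0.10, adjusted p = 1.24e-09). Within a library, the ratio of Oxct1 to Acat1 reads was 0.736 to 0.801 in young and 2.69 to 4.09 in old, and that of Oxct1 to Bdh1 was 2.53 to 2.73 and 5.41 to 8.80. These ratios were also chosen after the values were seen.

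Outside the list of 45, Slc16a1, the monocarboxylate carrier MCT1 that moves ketone bodies, lactate and pyruvate, had 164, 131, 137 and 85.1 normalised counts in young and 579.9, 465, 488, 618 and 578 in old. It was 4.22-fold higher (log2 fold change 2.10, SE 0.15, adjusted p = 1.62e-09), the largest rise of the pathway genes that are not in the list. Its old values all lay above its young values.

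**Figure D4:**
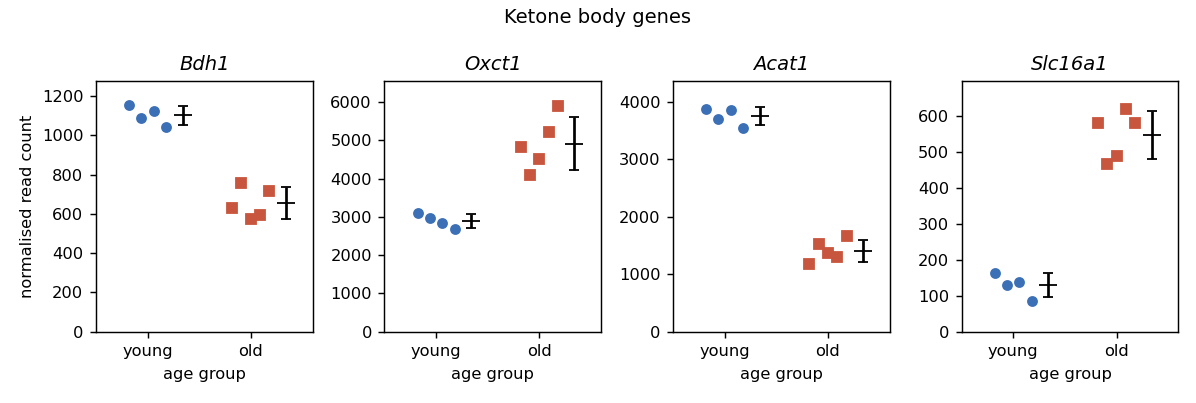
Normalised read counts (y axis, starting at 0, a scale for each gene) of Bdh1, Oxct1, Acat1 and Slc16a1 in young and old kidneys (x axis), with a point for each library and the mean ± SD beside them. Oxct1 and Slc16a1 lie higher in every old library, and Bdh1 and Acat1 lie lower.

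The 4 peroxisome membrane and import genes were all called, 2 in each direction, and none overlapped between ages, where 59.7% of all genes tested were called and 49.0% did not overlap. Pex5 encodes the receptor that carries enzymes with a C-terminal targeting signal into the peroxisome. It had 278, 264, 287 and 333 normalised counts in young and 15.3, 55.8, 36.5, 30.8 and 25.5 in old. The young mean was 8.87 times the old mean, and the log2 fold change was -3.22 (95% interval -3.74 to -2.70, adjusted p = 3.43e-09). Old libraries held as few as 13 reads of Pex5, and its fall was called under every alternative run (-3.44 to -2.99). Pex19, the chaperone and receptor of peroxisome membrane proteins, had 285, 277, 275 and 311 in young and 202, 254, 194, 169.8 and 164 in old (log2 fold change -0.56, adjusted p = 0.000934). Abcd3, the membrane transporter of branched and long dicarboxylic acyl-CoA, had 884, 916, 838 and 804 in young and 1033, 1077, 1048, 1161 and 1041 in old (log2 fold change 0.32, SE 0.09, adjusted p = 0.00399). Pex11a, which helps peroxisomes divide, had 458, 546, 565 and 476 in young and 585, 597, 625, 889 and 598 in old (log2 fold change 0.35, adjusted p = 0.0185). The call of Pex11a was lost without young replicate 1 (adjusted p = 0.0687), young replicate 4 (adjusted p = 0.0545) or old replicate 4 (adjusted p = 0.0521).

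Ppara had 164, 154, 148 and 122 normalised counts in young and 769.7, 648, 768, 848 and 682 in old. Its old mean was 5.05 times its young mean, the largest rise of the 45 genes (log2 fold change 2.33, 95% interval 2.09 to 2.57, adjusted p = 7.73e-12). The lowest old library was far above the highest young one. Ppargc1a, a coactivator that drives mitochondrial genes together with nuclear receptors, had 251, 324, 294 and 279 in young and 337, 308, 355, 326 and 281 in old, and the ages overlapped (log2 fold change 0.17, 95% interval -0.06 to 0.39, adjusted p = 0.201). It was called higher only when mitochondrial genes were removed before rescaling, among the alternatives run (0.31, adjusted p = 0.0258). Cd36, a receptor for fatty acid uptake in tubule, endothelium, fat and macrophages, had 829.6, 838, 780.4 and 598 in young and 596, 551, 801, 571 and 854 in old and was not called (log2 fold change -0.19, 95% interval -0.47 to 0.10, adjusted p = 0.254).

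**Figure D5:**
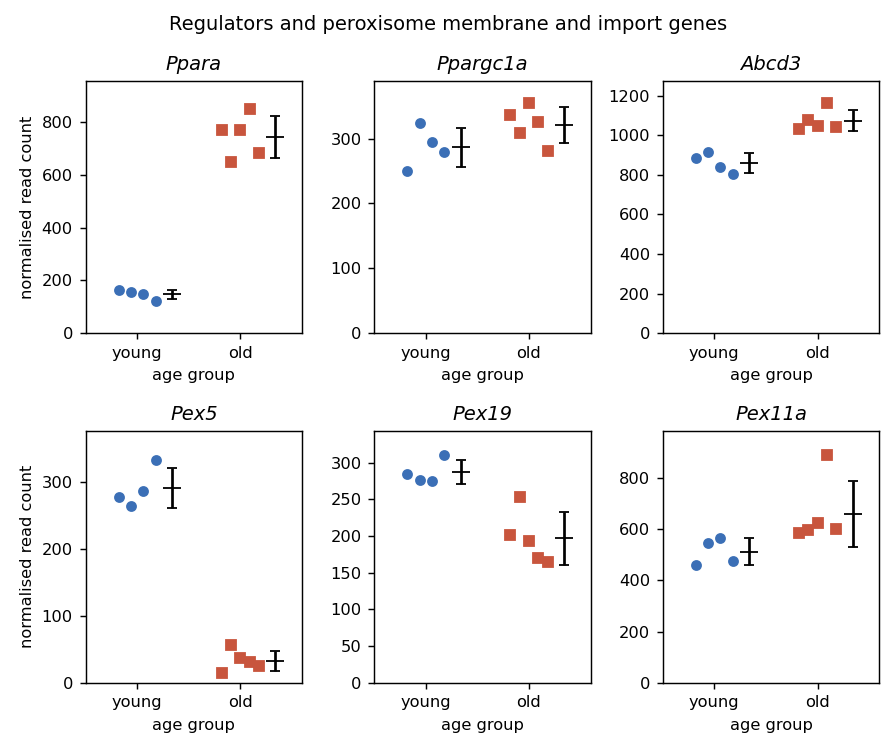
Normalised read counts (y axis, starting at 0, a scale for each gene) of Ppara, Ppargc1a, Abcd3, Pex5, Pex19 and Pex11a in young and old kidneys (x axis), with a point for each library and the mean ± SD beside them. Ppara rises from a mean of 147 to 743 and Pex5 falls from 291 to 32.8, while Ppargc1a overlaps between ages.

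The rest of the pathway was given by 75 further genes, of which 72 were in the table and tested. Of these, 51 were called (70.8%), with 12 higher, 39 lower and 21 not called, and the median log2 fold change was -0.46. Over all genes tested, 59.7% were called, 29.2% higher and 30.5% lower. The 21 mitochondrial genes held 1 rise and 13 falls (median -0.58), and the 26 peroxisomal genes 3 rises and 17 falls (median -0.64). The 20 genes of uptake, binding and regulation held 7 rises and 8 falls (median -0.21). Amacr, the racemase that prepares branched chains for peroxisomal oxidation, had 955, 1033, 909 and 1086 normalised counts in young and 91.9, 135, 73.0, 64.4 and 116 in old. This was the largest fall of these genes (log2 fold change -3.41, SE 0.17, adjusted p = 9.65e-12). Acot2, a mitochondrial thioesterase that releases fatty acids from CoA, went from 125 ± 28.3 to 22.8 ± 10.1 (log2 fold change -2.50, adjusted p = 7.06e-07). Nrip1, a corepressor that restrains oxidative genes, had 260.4, 258, 212 and 220 in young and 671, 547, 663, 542 and 551 in old, a 2.50-fold higher mean (log2 fold change 1.32, SE 0.11, adjusted p = 9.35e-09). Cat, the catalase that removes peroxisomal hydrogen peroxide, was not called (log2 fold change -0.18, 95% interval -0.48 to 0.11, adjusted p = 0.276).

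In 16 of the 33 called genes, the old value closest to the young group came from old replicate 2, and in 4, 2, 3 and 8 genes it came from old replicates 1, 3, 4 and 5. All reads came from transcript ends, so a shift in the end that a transcript uses cannot be told apart from a change in its amount. Over all 12455 genes with a known length, the log2 fold change and the length of the longest transcript had a Spearman's rho of 0.28, and over the 45 genes 0.18. Both values are across genes, which are not independent and share the same libraries.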

How the data were processed

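Mouse kidney RNA in 9 libraries was measured by 3′ end sequencing (QuantSeq, FWD, single stranded reads on a NextSeq 550). The labels and the methods name different versions of the kit. The authors checked reads with FastQC 0.11.7, aligned them to GRCm39 with TopHat2 2.0.10 (Bowtie 1.0.0, SAMtools 0.1.19) and counted them by strand per gene with HTSeq 0.6.1 on GENCODE vM26. The authors deposited a signal, reads per gene divided by 1 size factor for each library (DESeq in the methods, DESeq2 in the processing notes). Taking the smallest positive value of each library as 1 read, 100% of values were whole reads within 0.01.

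The test was limma 3.58.1 in R 4.3.3 (lmFit, eBayes with a variance trend) on log2(normalised count + 1), old against young, two-sided, in 9 libraries without covariates. Testing required 10 normalised counts or more in 4 or more libraries (12667 of 13081 genes), with Benjamini-Hochberg adjustment over the tested genes. This scale understates changes of genes with few reads. The lowest mean of any gene was 4.49, so genes had been filtered before deposition by a rule not given in the sources used here. The floor, set at 3 reads, was 4.72e-05% to 6.69e-05% of a library and covers counting error only, since the reads carry no molecular identifiers.

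Groups are the ages in the labels, and libraries are numbered in the order listed. The labels do not state that the libraries are separate animals beyond their separate records. The study defines the n of its legends as animals per group, but its legend for old and young wild-type kidneys gives no n. The p-values measure the spread between these libraries. The 45 genes, their roles, the pathway and marker lists and the alternatives were chosen with earlier results of these data known. Named genes are all 45 and, from the pathway list, Slc25a20, Cat and the 2 largest rises and falls among those called at a mean of 50 or more. Some genes that the rule names are not reported here. Fabp4 and Slc27a2 are on both a pathway and a marker list. Cpt1b, Nudt8, Abcd2, Lep and Xist were not found in the table by symbol. Alternatives were edgeR 4.0.16 and DESeq2 1.42.0 run on whole reads, other scalings, pseudocounts and filters, a length trend removed by lowess, and leaving out libraries. The procedure was tested on simulated data. Positions, lengths and shared 50-base words (last 500 bases) came from GENCODE vM21 on GRCm38, and promoter windows from RefSeq on GRCm38.p6, matched by symbol. Coordinates are of those builds.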

Additional observations from a re-analysis of the deposited data

Results flagged for a closer look

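In 5 of 108 gene and age groups, 1 library lay far from the others by Dixon's gap ratio (the gap to the nearest library divided by the range of the group, both on the log2 scale). Chance alone gives about 1 in 20, or 5.4 of 108. Echs1 in young replicate 2 had a ratio of 0.934, at 643 normalised counts beside 668 to 669.9. Hadha in young replicate 3 had a ratio of 0.878, at 413 beside 489 to 500.4. Etfdh in young replicate 4 had a ratio of 0.918, at 209 beside 246 to 249.7. Acox3 in old replicate 2 had a ratio of 0.761, at 387 beside 316 to 332. Pex11a in old replicate 4 had a ratio of 0.842, at 889 beside 585 to 625.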

How the results depend on the processing

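Over 21 alternatives, 31 to 34 of the 45 genes were called (33 as reported), 12 to 14 of the 16 mitochondrial enzymes (13), 7 to 9 of the 10 peroxisomal enzymes (7) and 37 to 52 of the pathway genes (51). The 37 came from requiring a mean of 100 or more, which left 53 of them to test. In the fit as reported, 59.7% of all genes tested were called, and that share under each alternative is not given here. Of the 33 called genes, 29 were called in the same direction under every alternative in which they were tested, and 5 of the 12 others were never called. Removing the trend with transcript length turned Etfb to 0.38, Ech1 to 0.21 and Acsm2 to -0.0062 (adjusted p = 0.00201, 0.043 and 0.964, limma), and split the called genes into 17 higher and 17 lower. Leaving out mitochondrial genes and rescaling the rest moved the median of all genes to 0.134 and the split to 16 higher and 18 lower. Cpt2 then lost its call (-0.15, adjusted p = 0.212), as it did with the length trend removed (-0.14, adjusted p = 0.267) and without the libraries with the highest adipocyte sums (adjusted p = 0.106), an alternative chosen after seeing the data. The causes were not tested. No paired analysis was made, since the labels link no young library to an old one. Preparation cannot be told apart from age if the title prefixes mark separate preparations. Depth limits genes such as Pex5, at 13 reads in an old library.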

Other observations

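Within the pathway list, subsets were looked at after their values were seen, and they are given as counts with no test over the subset. Of the 13 peroxins (proteins that build peroxisomes) other than the 3 among the 45 genes, 9 were lower, 1 higher and 3 not called, with a median log2 fold change of -0.92, beside 30.5% lower and 29.2% higher over all genes tested. Pex14, the docking protein at which Pex5 unloads its cargo, had 252, 274, 293 and 218 normalised counts in young and 64.8, 107, 96.3, 54.1 and 46.7 in old (log2 fold change -1.86, SE 0.20, adjusted p = 2.94e-07, limma). Pex2, a ring protein that takes part in returning Pex5 to the cytosol, was at 69.5 ± 3.22 (SD, n = 4) and 21.3 ± 2.04 (SD, n = 5), with a log2 fold change of -1.66 (adjusted p = 4.82e-07, limma).

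Odd-chain and branched fatty acids end as propionyl-CoA, and the 4 listed genes of its conversion to succinyl-CoA were lower, beside 30.5% of all genes tested. Pcca went from 246 ± 24.5 to 92.5 ± 17.3 (log2 fold change -1.42, adjusted p = 1.66e-07, limma) while its partner subunit Pccb changed by -0.27 with overlapping groups (adjusted p = 0.0253, limma). Mcee and Mmut had log2 fold changes of -1.07 and -0.91, without overlap between ages.

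Beside the rise of Ppara, 7 other receptors and coregulators of the pathway list held 2 rises, 4 falls and 1 gene not called (median log2 fold change -0.35), beside 29.2% higher and 30.5% lower over all genes tested. Esrra, an orphan receptor that works with Ppargc1a on mitochondrial genes, had 364, 393, 379 and 317 normalised counts in young and 101, 163, 114, 130 and 102 in old (log2 fold change -1.59, SE 0.14, adjusted p = 2.02e-08, limma). Ppard and Rxra were lower (-0.78 and -0.35), as was Pparg, at few counts and with overlapping groups (-1.23, adjusted p = 0.0437, limma). The corepressor Ncor1 was higher (0.55, adjusted p = 2.26e-05, limma), as was Nrip1, and Ppargc1b was not called (-0.20, adjusted p = 0.161, limma). Cyp4a10 and Cyp4a14, ω-hydroxylases that PPARα is known to induce, had log2 fold changes of 0.40 (adjusted p = 0.0264, limma) and -0.03 (adjusted p = 0.93, limma). The groups of Cyp4a10 overlapped. Pdk4 and Angptl4, also on the pathway list, were lower without overlap (-2.10 and -1.18, adjusted p = 7.68e-05 and 0.000606, limma). Pdk4 was at few counts, with means of 41.2 in young and 9.30 in old. Whether any of these changes relate to Ppara was not tested.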
